A study of Mus musculus with 9 samples.

Results

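The smooth muscle genes described here are 7 genes whose products build or regulate the contractile apparatus of the hair-erecting (arrector pili) muscles and of the vessel walls in skin: Tagln, Acta2, Myh11, Cnn1, Actg2, Smtn and Myl9. They were chosen by function, together with the earlier observation in these data that Tagln differed between transgenic lines. The differences of Tagln are therefore given as a description without a test, and the other 6 genes were tested in a model fitted to all genes. The members are the 9 probe sets that name one of these genes alone, out of 20380 probe sets that name 1 gene, and 7 of 12393 genes. Acta2 and Myh11 have 2 probe sets each.

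The arrays hold RNA from whole mouse skin taken at 30 days of age on a mixed C57BL/DBA/FVB background, with 30 mg of tissue per extraction, and each array received 1 pool. The pools came from the transgenic lines L60, L84 and LA (n = 2 each) and from control mice LC (n = 3). The series title names a constitutively active form of Akt, a growth signalling kinase, and the labels used here give neither the promoter of the transgene, nor how the lines differ, nor the number or sex of the animals in a pool. P-values therefore measure only the spread between these pools. Every probe set was deposited as a score with mean 0 and SD 1 over the 9 arrays, so a value says how far an array lies from the mean of that probe set in SDs. Genes with several probe sets, such as Acta2 and Myh11, were given the average, whose SD falls below 1 where the sets disagree. A score carries no expression level and no fold, levels of different genes cannot be compared, and whether a marker is present or absent in the tissue cannot be read from it.

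Smooth muscle cells shorten when myosin light chain kinase, encoded by Mylk, phosphorylates the regulatory light chain Myl9 and the heavy chain Myh11 then pulls on filaments of the actins Acta2 and Actg2. Calponin (Cnn1), transgelin (Tagln, also called SM22) and smoothelin (Smtn) bind these filaments. In skin the set marks arrector pili muscles and vessel walls, and Acta2 is also made by pericytes, by the dermal sheath of the hair follicle and by myofibroblasts. Many of these genes are switched on by serum response factor (SRF), which binds a short DNA element called the CArG box. In RNA from whole tissue, fewer cells of a type and less RNA per cell cannot be told apart.

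RefSeq promoters (GRCm38.p6, 250 bases before to 50 bases after the annotated start) matched 4 of the 7 genes: Acta2, Myl9, Cnn1 and Smtn. Those of Acta2 and Myl9 are shown because they hold CArG boxes or near matches in this window, printed in capitals. The first is chr19:34255324-34255623 on the minus strand and the second chr2:156775214-156775513 on the plus strand.
Acta2: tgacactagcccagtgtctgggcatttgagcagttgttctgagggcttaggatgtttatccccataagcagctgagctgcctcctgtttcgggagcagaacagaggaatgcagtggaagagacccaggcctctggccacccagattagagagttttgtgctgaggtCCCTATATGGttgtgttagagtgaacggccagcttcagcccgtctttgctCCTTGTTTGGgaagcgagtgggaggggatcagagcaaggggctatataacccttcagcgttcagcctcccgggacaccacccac
Myl9: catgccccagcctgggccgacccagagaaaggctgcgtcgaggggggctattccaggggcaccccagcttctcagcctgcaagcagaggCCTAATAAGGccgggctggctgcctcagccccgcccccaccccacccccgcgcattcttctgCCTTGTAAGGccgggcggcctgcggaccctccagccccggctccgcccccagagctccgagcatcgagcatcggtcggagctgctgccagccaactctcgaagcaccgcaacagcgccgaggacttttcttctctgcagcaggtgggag

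Both strands were searched for the CArG box and for its near match, in which 1 of the 6 core bases is C or G. Myl9 held 1 CArG box, whose first base lies at position -161 from the start, and 1 near match at -99. Acta2 held 2 near matches, at -84 and -34. The start used for the windows lies inside the annotated gene spans, whose upstream ends are at 34255585 for Acta2 and 156775408 for Myl9. Positions are therefore counted from the start of the promoter annotation alone. The windows of Cnn1 and Smtn held neither form. Of 32851 promoter windows of this length, 1.63% held a CArG box and 9.98% held a CArG box or a near match, and a match describes the letters only.

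**Figure D1:**
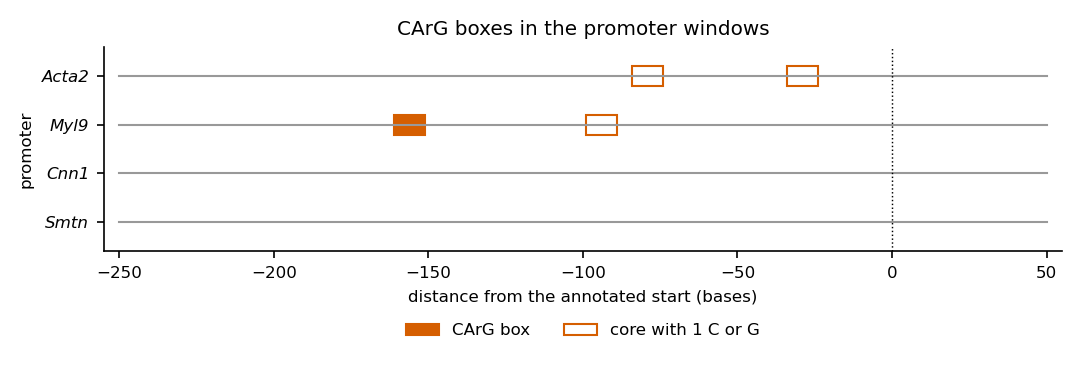
Position of CArG boxes (filled) and of matches whose core holds 1 C or G (open) in the promoter windows of Acta2, Myl9, Cnn1 and Smtn, with distance from the annotated start in bases on the x axis. Acta2 holds 2 open boxes, Myl9 a filled and an open one, and the windows of Cnn1 and Smtn hold none.

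Tagln, the gene noted for its line difference, scored 1.21 and 1.32 on the L60 arrays, -1.55 and -1.41 on the L84 arrays and 0.0849 and -0.342 on the LA arrays, against 0.515, 0.0849 and 0.0849 on the LC arrays. L60 lay above every control array and L84 below every control array, while LA overlapped the controls. The L60 mean exceeded that of LC by 1.04 ± 0.196 (SE), whereas the difference from LC was -1.71 ± 0.196 in L84 and -0.357 ± 0.196 in LA, and L84 differed from L60 by -2.74. To 6 decimals the scores of LA 1, LC 2 and LC 3 were equal, which narrows the spread within LC. Tagln lies on chromosome 9 (GRCm38.p6, chr9:45929628-45936058) and its probe set is 1423505_at.

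Of the 2 smooth muscle actins, Actg2 (chr6:83512909-83536251) scored -2.05 and -1.05 in L84, 0.742 and 0.207 in L60 and 1.28 and 0.542 in LA, against -0.156, 0.202 and 0.289 in LC. The L84 arrays lay below all controls and the LA arrays above all controls. Acta2 (chr19:34240336-34255585), averaged over its 2 probe sets, scored 0.21 and 0.838 in L60, -1.72 and -0.601 in L84 and 0.968 and 0.852 in LA, against -0.14, -0.21 and -0.202 in LC. No line overlapped the controls, L84 lying below them and L60 and LA above. LC 1 was the highest control on 1416454_s_at and the lowest on 1456658_at, so averaging narrowed the spread within LC.

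The 2 probe sets of Acta2 did not show the same pattern. On 1416454_s_at the scores were 0.65 and 0.813 in L60, -2.25 and -1.01 in L84 and 0.535 and 0.217 in LA, against 0.635, 0.207 and 0.207 in LC, so that L84 stood well below the other arrays and L60 just above the controls, of which LC 2 and LC 3 were tied. On 1456658_at they were -0.23 and 0.864 in L60, -1.18 and -0.191 in L84 and 1.4 and 1.49 in LA, against -0.915, -0.626 and -0.611 in LC, so that LA stood highest and L84 overlapped the controls. The difference of L84 from LC was -1.98 ± 0.399 on the first and 0.0328 ± 0.437 on the second, and that of LA was 0.0267 ± 0.399 and 2.16 ± 0.437. None of these 4 passed limma's test over all probe sets (adjusted p = 0.223, 0.988, 0.975 and 0.1). The suffix _s_at marks a set whose probes can match more than 1 transcript, and the actins are close relatives, so RNA of another actin on the first probe set was not tested.

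Among the motor subunits, Myh11 (chr16:14194527-14292188), the heavy chain, scored -0.036 and -0.16 in L60, -1.21 and -0.454 in L84 and 1.23 and 0.958 in LA, against 1.14, -0.617 and -0.839 in LC. The controls spanned nearly the whole range, because LC 1 stood high, and no line lay clear of them. Its probe sets gave L84 differences of -1.45 ± 0.785 for 1418122_at and -0.00261 ± 0.698 for 1448962_at. On 1418122_at L60 1, L60 2 and LC 2 were tied. Myl9 (chr2:156775408-156781657), the light chain that the kinase acts on, scored 0.114 and 1.66 in L60, -1.87 and 0.325 in L84 and 0.84 and -0.104 in LA, against -0.941, -0.108 and 0.0916 in LC. Its L60 arrays lay above all controls, and its L84 arrays lay on either side of them.

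The filament-binding proteins split. Cnn1 (chr9:22099221-22109221) scored -0.0629 and -1.04 in L60, -1.46 and -0.0155 in L84 and 1.26 and 1.76 in LA, against -0.318, -0.0497 and -0.0629 in LC. LA alone lay clear of the controls, and above them. Smtn (chr11:3517522-3539292) scored 0.128 and 0.941 in L60, -1.42 and -1.2 in L84 and 0.00353 and -1.05 in LA, against 0.437, 1.03 and 1.13 in LC. L84 and LA both lay below all controls, so Smtn had LA on the opposite side of the controls from Acta2, Cnn1 and Actg2.

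**Figure D2:**
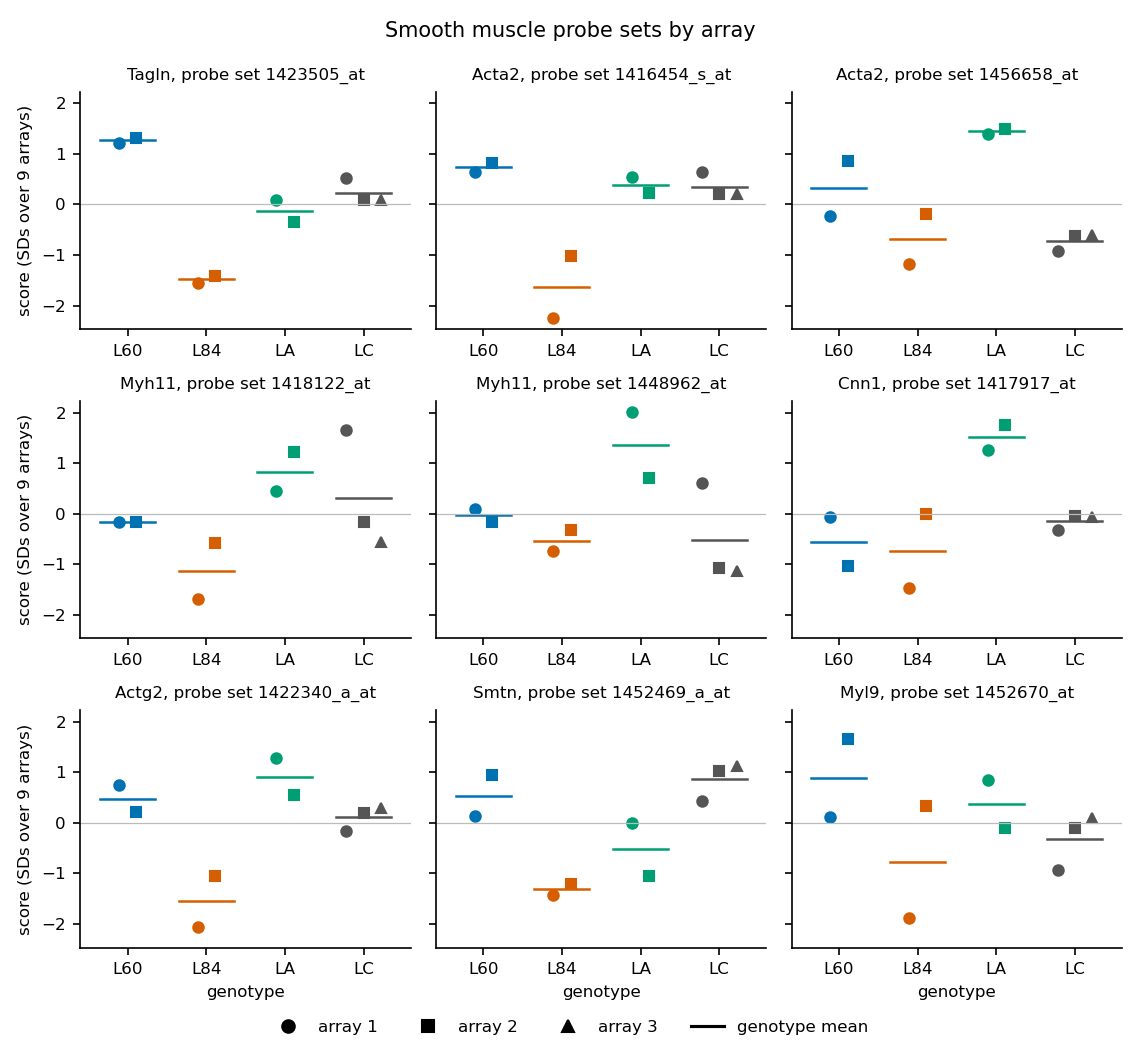
Scores of the 9 smooth muscle probe sets, in SDs over the 9 arrays (y axis), by genotype (x axis), where each symbol is 1 array and each line is a genotype mean. L84 1 has the lowest score in 8 of the 9 panels, and Tagln shows L60 above and L84 below the 3 controls.

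L84 against LC asked what this line changed, and here the members leaned one way. All 6 tested genes had a lower mean in L84 (49.9% of all genes did), with a median difference of -0.85 beside 0.00308 over all genes. Arrays did not overlap for 3 of the 6, Acta2, Actg2 and Smtn, each lower (14.7% of all genes). The differences were -2.18 ± 0.446 for Smtn (95% interval -3.32 to -1.03), -1.67 ± 0.414 for Actg2 (-2.73 to -0.602) and -0.974 ± 0.371 for Acta2 (-1.93 to -0.0192), and for Myh11, Cnn1 and Myl9 they were -0.726, -0.596 and -0.456. By limma's unmoderated test 0 of 6 were called over all genes, where 0.565% of all genes were (adjusted p = 0.177, 0.241 and 0.4 for Smtn, Actg2 and Acta2). These 3 had an unadjusted p under 0.05. Moderated variance called 0 of 6, and 0 of all genes.

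The L84 arrays differed from each other. L84 1 had the lowest score of all 9 arrays for each of the 7 genes, and it is 1 of the 3 arrays (with LC 1 and L60 1) that score high for 18S ribosomal RNA, at 0.339 against -0.528 for L84 2. The 3 are not matched, since 18S was 1.13 on LC 1 and 2.09 on L60 1, and the Gapdh control probe sets scored 1.11 (3′ end) and 0.583 (5′ end) on L84 1 but -1.49 and -1.64 on LC 1. Its scores were also spread more widely, with an SD of 1.2 over all probe sets, against 0.907 on L84 2 and 0.764 to 0.786 on the LC arrays. Without L84 1, the difference of Cnn1 was 0.128, of Myl9 0.644, of Acta2 -0.417, of Myh11 -0.347 and of Actg2 -1.17, while Smtn stood at -2.07. Without LC 1, Myh11 stood at -0.105. L84 1 minus LC 1, both high in 18S, was negative for 7 of 7 genes, Tagln included, from -2.35 for Myh11 to -0.934 for Myl9. L84 2 minus the mean of LC 2 and LC 3, all low in 18S, was negative for 4 of 7: Smtn at -2.28, Tagln at -1.49, Actg2 at -1.3 and Acta2 at -0.395. Myh11, Cnn1 and Myl9 stood at 0.274, 0.0408 and 0.333 there. For these counts of lowest scores and of negative differences, the share of all genes was not taken. The part of 18S, of Gapdh and of the wide scores of L84 1 in the L84 differences was not tested.

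**Figure D3:**
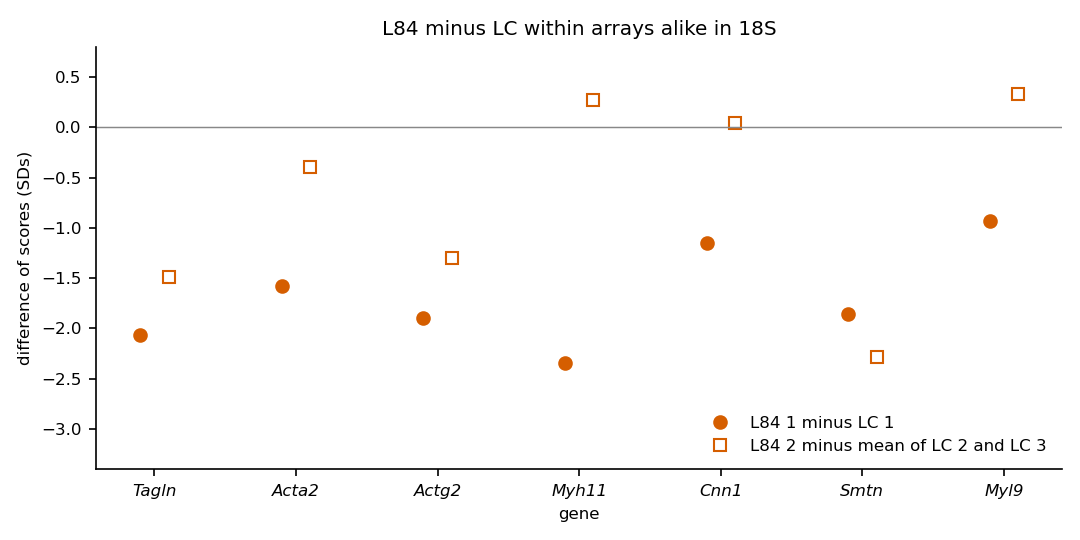
Differences of scores in SDs (y axis) for the 7 genes (x axis) between L84 1 and LC 1 (filled circles, both high in 18S) and between L84 2 and the mean of LC 2 and LC 3 (open squares, all low in 18S). The circles lie below 0 for all 7 genes, and the squares lie below 0 for Tagln, Acta2, Actg2 and Smtn.

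LA against LC asked the same of that line. Of the 6 tested genes 5 had a higher mean in LA (56.1% of all genes did) and Smtn a lower one, with a median difference of 0.947 beside 0.247 over all genes. The controls did not overlap LA for Acta2, Cnn1 and Actg2, which were higher (27.8% of all genes), or for Smtn, which was lower (21% of all genes). The differences were 1.65 ± 0.532 for Cnn1 (95% interval 0.283 to 3.02), 1.09 ± 0.371 for Acta2 (0.139 to 2.05), 0.799 ± 0.414 for Actg2 and -1.39 ± 0.446 for Smtn (-2.54 to -0.245). Myh11 differed by 1.2 ± 0.667 and Myl9 by 0.687 ± 0.881. Single arrays moved 4 of these by over 1.5 times: Actg2 stood at 0.43 and Myl9 at 0.215 without LA 1, Smtn at -0.863 and Myl9 at 1.16 without LA 2, and Myh11 at 1.82 and Myl9 at 0.376 without LC 1. In limma's unmoderated test 0 of 6 were called, where 1.8% of all genes were (adjusted p = 0.183, 0.198 and 0.181 for Cnn1, Acta2 and Smtn, which had an unadjusted p under 0.05). With moderated variance 0 of 6 were called, and 0 of all genes. Setting array medians to 0 lowered all LA differences from LC by 0.132, and those from L84 by 0.148, and left these directions. LA 2 had the widest scores of the 9 arrays (SD 1.31).

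In L60 against LC the members were mixed. Means were higher for 4 of the 6 tested genes (54.8% of all genes) with a median of 0.186 beside 0.0777 over all genes, and arrays did not overlap for Acta2 and Myl9, both higher (14.4% of all genes). Myl9 differed by 1.2 ± 0.881 and Acta2 by 0.708 ± 0.371, and the other 4 by -0.407 (Cnn1) to 0.363 (Actg2). Without L60 2 the Myl9 difference was 0.433 and the Acta2 difference 0.394. No member was called by limma's unmoderated test, nor was any of the 12393 genes (0%), and 0 of 6 had an unadjusted p under 0.05. With moderated variance 0 of 6 were called, and 0 of all genes. The 3 comparisons share the LC arrays.

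**Figure D4:**
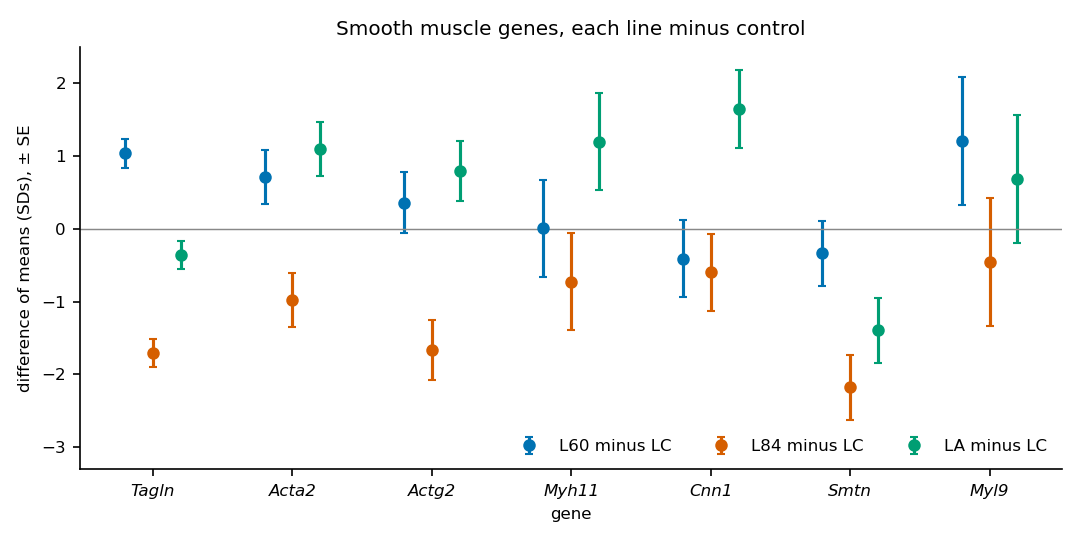
Difference of the mean score of each line from LC in SDs (y axis) with its standard error from the fit to 9 arrays, for the 7 genes (x axis). L84 lies below 0 for all 7 genes, and LA lies above 0 for Acta2, Actg2, Myh11, Cnn1 and Myl9 and below 0 for Tagln and Smtn. Acta2 and Myh11 are averages of 2 probe sets.

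Lines were also set against each other. One line lay above and another below all control arrays for 3 of the 7 genes, Tagln (chosen for its line difference), Acta2 and Actg2 (5.54% of all genes). L84 had the lowest genotype mean in each of the 7 genes, Tagln included, but in 5 of 7 without L84 1 (the exceptions being Cnn1 and Myl9). The share of all genes with L84 lowest was not taken. The highest was LA in Acta2, Myh11, Cnn1 and Actg2, L60 in Tagln and Myl9, and LC in Smtn. LA exceeded L84 in 6 of 6 tested genes (53.6% of all genes), with a median of 2 beside 0.117 over all genes, and arrays did not overlap in 5 of 6 (20% of all genes), Myl9 being the exception. The differences of LA from L84 were 2.46 ± 0.453 for Actg2, 2.25 ± 0.582 for Cnn1, 2.07 ± 0.407 for Acta2 and 1.93 ± 0.731 for Myh11. None was called by limma's unmoderated test (adjusted p = 0.251, 0.367, 0.276 and 0.464, with 0.0161% of all genes called), although these 4 had an unadjusted p under 0.05. Without L84 1 the Myl9 difference was 0.0432, against 1.14 with it.

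L84 was lower than L60 in 6 of 6 tested genes (53.4% of all genes), with arrays apart in 4 of 6 (17.5% of all genes): Acta2, Actg2, Myh11 and Smtn. Actg2 differed by -2.03 ± 0.453, Smtn by -1.84 ± 0.489 and Acta2 by -1.68 ± 0.407, and by limma's unmoderated test 0 of 6 were called (adjusted p = 0.375, 0.441 and 0.413, with 0.113% of all genes called), these 3 having an unadjusted p under 0.05. Cnn1 turned to 0.536 without L84 1, against -0.189 with it, and Acta2 stood at -1.13. Between LA and L60 only Cnn1 had an unadjusted p under 0.05, at 2.06 ± 0.582, and 0 of 6 were called (adjusted p = 0.21 for Cnn1, with 0.629% of all genes called). The F test over the 4 genotypes called 0 of 6 (0.734% of all genes), with 4 at an unadjusted p under 0.05. Moderated variance called 0 of 6, and 0 of all genes, in each of these comparisons.

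Other genes of the contractile system came from lists chosen by function, with earlier results of these data known. Mylk, the kinase that activates Myl9, was called: it scored 1.54 and 1.63 in LA, against -0.413 and -0.358 in L60, -0.705 and -0.519 in L84 and -0.263, -0.279 and -0.633 in LC. Both LA arrays lay far above the other 7, and each of its 3 probe sets had LA highest. The L84 arrays scored -0.962 and 0.707 on 1 of these sets, -0.752 and -1.56 on another and -0.4 and -0.709 on the last. Averaging the 3 sets therefore narrowed the spread within L84, which enters the standard errors of Mylk. L60 1 and L60 2 were tied on the set with -1.56, and L60 2 and L84 1 on the last. Mylk rose in LA against LC by 1.98 ± 0.135 (limma's unmoderated test, adjusted p = 0.00819, with 0.815% of all genes called higher) and against L60 by 1.97 ± 0.148 (adjusted p = 0.0192), while the difference from L84 was 2.2 ± 0.148 (adjusted p = 0.0586). The call against LC was lost under 6 of 15 alternatives: with moderated variance (adjusted p = 0.115), without LA 2 (adjusted p = 0.069), with only the arrays of both groups (adjusted p = 0.0744), without the 3 arrays high in 18S (adjusted p = 0.186), without L84 1 and LA 2 (adjusted p = 0.0886) and with the replicate number as a block (adjusted p = 0.0884). The difference was 1.84 to 2.04 over all 15, which include no fit on a single probe set of Mylk. Moderated variance called 0 of all genes against LC and 0 against L60. The call against L60 was lost under 11 of 15, among them leaving out LC 1, LC 2 or either array of L60 or LA (adjusted p = 0.0546 to 0.147), at differences of 1.91 to 2.01 over all 15.

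Of the 15 measured genes of the further contractile list, which holds tropomyosins, caldesmon, desmin and focal adhesion proteins as well as Mylk, the other 14 were not called in any contrast. Of all genes, 0% (L60 against LC) to 1.8% (LA against LC) were called in a contrast. The median difference from LC over all 15, Mylk included, was -0.21 in L60, -0.22 in L84 and 0.562 in LA, beside 0.0777, 0.00308 and 0.247 over all genes. None of 10 measured regulators (of 12 listed, among them Srf and Myocd), 8 genes of contraction signalling (of 16) or 7 of muscle anchorage (of 8) was called, beside the same shares of all genes. Largest in the F test were, among regulators, Csrp2, a LIM protein of smooth muscle, with -1.87 ± 0.515 in LA, Foxf1, a forkhead factor, with 1.92 ± 0.529 in LA, and Gata6, a zinc finger factor, with 1.88 ± 0.507 in L84 (adjusted p = 0.145, 0.145 and 0.277 against LC). Csrp2 also differed by 0.489 in L60 and -0.392 in L84, Foxf1 by 0.148 and -0.34, and Gata6 by 0.15 in L60 and 0.991 in LA. Of the signalling genes, the calcium channel Cacna1c differed by 1.92 ± 0.67 in LA, 1.55 in L84 and 0.986 in L60. The muscarinic receptor Chrm3 differed by 1.58 ± 0.683 in LA, 0.373 in L84 and -0.61 in L60. The potassium channel Kcnma1 differed by 1.11 ± 0.754 in LA, 0.838 in L84 and 1.13 in L60. The adjusted p of these signalling genes in the F test was 0.447, 0.46 and 0.679. Of the anchorage genes, the integrin Itgb1 differed by 1.02 ± 0.245 in L84, 0.338 in LA and 0.257 in L60. Emilin1, a protein of elastic fibres, differed by 1.06 ± 0.615 in LA, 0.788 in L60 and -0.218 in L84. Npnt, the ligand that anchors arrector pili muscle to the follicle, differed by 0.945 ± 0.487 in LA, 0.603 in L60 and 0.562 in L84. Their adjusted p in the F test was 0.314, 0.583 and 0.631.

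Lists for other cell types gave these values beside the members, whose own list mean was 0.33 and 0.538 in L60, -1.61 and -0.63 in L84 and 0.808 and 0.373 in LA, against 0.0476 to 0.0759 in LC. Skeletal muscle genes averaged 1.47 and 0.0866 in L84, 0.93 and 0.38 in LA and -1.19 and -0.528 in L60, against -0.415 to -0.357 in LC. A higher mean than in LC was found for 15 of 15 in L84 (50.1% of all genes) and for 13 of 15 in LA (56.1% of all genes). Of the 6 smooth muscle genes other than Tagln, 6 had a lower mean in L84 (49.9% of all genes) and 5 a higher one in LA. Fibroblast and matrix genes averaged -1.3 on L84 1, where the members were lowest, and 0.775 on L84 2. In LA, pericyte markers averaged 1.09 and 0.477 (-0.293 to -0.16 in LC; 1 of 9, Kcnj8, a potassium channel subunit named after its values were seen, was called higher, as were 0.815% of all genes), fibroblast genes 0.725 and 0.372 (-0.436 to -0.119 in LC) and endothelial genes 0.591 and -0.0193 (-0.339 to -0.00635 in LC). Hair shaft keratins were low in L84 and LA alike, at -1 to -0.878 over the 4 arrays against 1.04 to 1.25 in LC, with 9 of 12 called lower in each (0.403% of all genes in L84 and 0.984% in LA). The keratins also averaged less in L60 than in LC, at 0.129 and 0.179, with 0 of 12 called (0% of all genes). The smooth muscle list mean, which includes Tagln (chosen for its line difference), lay below LC on both L84 arrays and above LC on both LA arrays. Smtn and Tagln had a lower mean in both lines. The part of these cell types in the smooth muscle differences was not tested.

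**Figure D5:**
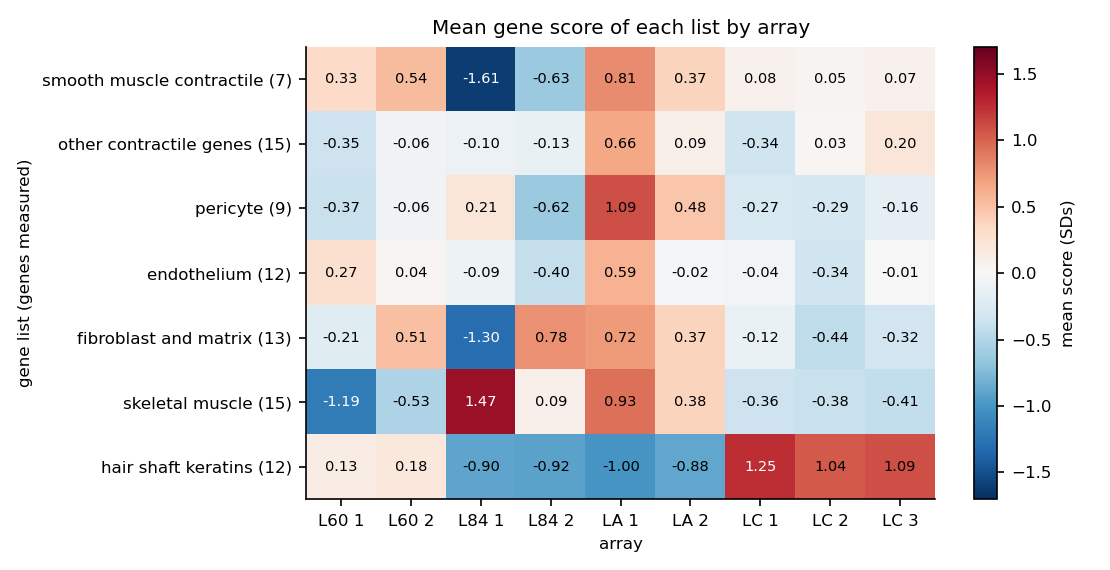
Mean gene score in SDs (colour and number) of the smooth muscle genes and of 6 other gene lists (y axis, with genes measured) on each of the 9 arrays (x axis). The smooth muscle row is lowest on L84 1 (-1.61) and highest on LA 1 (0.81), and the skeletal muscle row is highest on L84 1 (1.47). The hair shaft keratin row is low on all L84 and LA arrays, and lower on the L60 arrays (0.13 and 0.18) than on the LC arrays.

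Among 12124 other genes, those with scores most like Tagln over the 9 arrays were Sass6, a centriole protein (Pearson's r = 0.938), Igfbp7, a secreted binding protein of insulin-like growth factors (0.929), Rad51ap1, a DNA repair factor (0.908), Rrp15, of ribosome biogenesis (0.908), and F11r, a tight junction adhesion molecule (0.908). Most like the mean of the 7 members were Apoa4, an apolipoprotein (r = 0.962), Mutyh, a DNA glycosylase (0.952), Nfam1, an immune receptor (0.94), Nkain1, a partner of the sodium pump (0.94), and Ddx25, an RNA helicase (0.938). These r values describe 9 arrays that share genotypes and array effects, and were picked as the highest of many. Igfbp7, for instance, scored 0.688 and 1.16 in L60, -1.24 and -0.825 in L84 and 0.477 and 0.000986 in LA, against 0.0189, -0.273 and -0.00948 in LC. Its L60 arrays lay above and its L84 arrays below all controls as for Tagln, an order favoured by its choice for likeness to Tagln.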

How the data were processed

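RNA of 9 skin pools was hybridised to 1 Affymetrix array each. RMA is named, without a version, in the submitters' processing notes. The deposited values are a score that the authors standardised for each probe set to mean 0 and SD 1 over the 9 arrays, as the values show. No level, depth or signal over background follows from them, and the number of arrays limits the precision. Of 22690 probe sets, 20380 name 1 gene in the platform annotation. Probe sets of 1 gene were averaged.

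Means per genotype were fitted to all 9 arrays with limma 3.58.1 in R 4.3.3 (5 residual degrees of freedom), with each gene's own variance, so that rescaling a gene leaves its p as it is. The threshold for a call was 0.05 after Benjamini-Hochberg adjustment over 12393 genes, in each of 6 contrasts and in an F test. The fit was tested on simulated data. The members, lists and tests were chosen with earlier results of these data known. All 7 members are named. From each companion list the called genes were named or, with none, the 3 with the largest F, and the 5 genes most like Tagln and most like the member mean. Alternatives were leaving out arrays, moderated variance, single probe sets (not for Mylk), a replicate block, 2 groups alone and array medians at 0.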

Additional observations from a re-analysis of the deposited data

Results flagged for a closer look

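For 3 of the 7 genes, 2 lines lay on opposite sides of all control arrays, as for 5.54% of all genes, and 1 of the 3 is Tagln, chosen for its line difference. Tagln was below the controls in L84 and above them in L60, a difference of L84 from L60 of -2.74, which was not tested for that reason. Acta2 was below the controls in L84 and above them in L60 and LA, with a difference of L84 from L60 of -1.68 and of LA from L84 of 2.07. This holds for the average of its 2 probe sets: on 1416454_s_at LA overlapped LC (a difference of 0.0267), and on 1456658_at L84 overlapped LC (0.0328). Actg2 was below the controls in L84 and above them in LA, with a difference of LA from L84 of 2.46. None of the differences of Acta2 and Actg2 passed limma's test over all genes (adjusted p = 0.413, 0.276 and 0.251). The lines share the LC arrays, and groups of 2 and 3 arrays are too small for the test of a single array against its group.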

How the results depend on the processing

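No tested member was called under any alternative (adjusted p = 0.0532 to 1). Of 306 member differences that an alternative moved at all, 23 changed sign. In L60 minus LC, leaving out single arrays moved Myh11 between -0.357 (without LC 3) and 0.63, Cnn1 between -0.896 and 0.0807 (without L60 2) and Smtn between -0.738 and 0.0742 (without L60 1). Myh11 there also stood at -0.246 without LC 2, -0.0534 without L60 1, -0.357 with the replicate block, -0.0621 with array medians at 0 and -0.479 on probe set 1418122_at alone, and Actg2 at -0.0386 without the 3 arrays high in 18S. In L84 minus LC, Cnn1 ranged from -1.32 without L84 2 to 0.128 without L84 1, and Myl9 from -1.56 to 0.644, the upper values also without both L84 1 and LA 2. Without the 3 arrays high in 18S, Myh11, Cnn1 and Myl9 stood at 0.274, 0.0408 and 0.333, and on probe set 1456658_at alone Acta2 stood at 0.0328. In L84 minus L60, Cnn1 ranged from -0.913 to 0.536 (0.299 without L60 1, 0.536 also without L84 1 and LA 2) and stood at 1.02 without the 3 arrays high in 18S. In LA minus L60, Myl9 ranged from -1.29 to 0.254 (without L60 2), and Acta2 stood at -0.356 on probe set 1416454_s_at alone. The cause was not tested.

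Counts of tested members by direction and overlap were added after the data were seen. With arrays left out or array medians at 0, they moved as follows. Those lower in L84 than in LC by mean were 3 without the 3 arrays high in 18S. Those whose L84 arrays lay below all LC arrays ranged from 3 to 6 when single arrays were left out, and those whose LA arrays lay above all LC arrays from 3 to 5, with 5 also without L84 1 and LA 2. Fewer arrays overlap less often by construction, and the upper counts came without L84 2 and without LA 2, with 1 array left in the line. The share of all genes was not taken under these settings, so these ranges cannot be weighed against it. Deviations of same-numbered arrays from their group means correlated at -0.0833 to 0.345, over 0.1 in 5 of 12 pairs and highest between L84 and LA. Pairs of lines with 2 arrays each give the same value for both numbers by construction. The 3 arrays high in 18S (LC 1, L60 1 and L84 1) all carry number 1, and LA 1 was low at -0.625. As not every pair was over 0.1, the numbers were not treated as pairing the pools in the main fit. With the replicate block 0 members were called, and Mylk was called neither in LA against LC (adjusted p = 0.0884) nor against L60 (adjusted p = 0.089).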
